A study of Mus musculus with 20 samples.

Results

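The loss of Lmx1b was compared between hindlimbs and forelimbs, gene by gene, in mouse embryos of the 129Sv strain at embryonic day 13.5. The quantity reported is a difference of effects: knockout minus wild type in hindlimbs, minus knockout minus wild type in forelimbs, on the log2 scale of array intensities. It is 0 for a gene that responds by the same factor in both limb types. A positive value means that the knockout level, relative to wild type, was higher in hindlimbs than in forelimbs, as when a fall in knockout forelimbs is smaller or missing in hindlimbs. The same number is also the hindlimb-minus-forelimb difference in knockouts minus that difference in wild types. All 20 of the 20 arrays enter it, each made from 1 limb: 5 Wild-type forelimbs, 5 Wild-type hindlimbs, 5 Lmx1b -/- forelimbs and 5 Lmx1b -/- hindlimbs, from left and right sides. Both genotypes share the strain and the stage, and the labels name no other allele or treatment. The sample titles call the arrays biological replicates, but no label names the embryo that a limb came from. Every p-value therefore rests on limb-to-limb spread alone, part of which may be technical.

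Lmx1b encodes a LIM-homeodomain transcription factor that the dorsal mesenchyme of the limb bud expresses under the control of Wnt7a, a signal of the dorsal ectoderm. Without it the dorsal side of the limb takes on ventral features, and in people reduced LMX1B activity causes nail-patella syndrome. Forelimb and hindlimb share this dorsoventral system but differ in identity genes, with Tbx5 in the forelimb and Tbx4 and Pitx1 in the hindlimb, and in the mouse the forelimb develops ahead of the hindlimb. LIM-homeodomain proteins bind DNA sites built around the letters TAAT.

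Median intensities of the 20 arrays lay between 28.6 and 31.8, and no pair of arrays held identical values. The limb types carried their identity genes: Tbx5 had mean log2 levels of 8.50 and 8.75 in wild-type and knockout forelimbs against 4.73 and 4.68 in hindlimbs, and Pitx1 had 8.49 and 8.43 in wild-type and knockout hindlimbs against 5.40 and 5.52 in forelimbs. Sex, read from Y-linked genes and Xist, was not balanced. All 5 wild-type forelimb arrays were male, against 3 of 5 wild-type hindlimb, 2 of 5 knockout forelimb and 3 of 5 knockout hindlimb arrays. Groups with both sexes thus held limbs of different embryos. Xist and the Y-linked genes had large differences of effects, at -3.86 for Xist and 3.11 for Uty, neither past the threshold, and none of the genes named below other than these markers is linked to the Y chromosome.

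The targeted gene itself was lower in every knockout array than in every wild-type array of its limb type. Lmx1b read 6.34, 6.48, 6.14, 6.30 and 6.26 in wild-type forelimbs and 5.60, 5.73, 5.72, 5.82 and 5.75 in knockout forelimbs. In hindlimbs it read 6.44, 6.48, 6.31, 6.52 and 6.49 in wild type and 5.88, 5.81, 6.09, 5.84 and 5.96 in knockouts. Signal remained in the knockouts, and whether the probes lie in the deleted part was not analysed here. The difference of effects for Lmx1b was 0.051 (SE 0.0975, 95% interval -0.15 to 0.25, 20 arrays). No difference between limb types in the knockout effect on its signal was thus resolved beyond the spread between arrays.

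Across 19936 genes, 4 passed a Benjamini-Hochberg adjusted p of 0.05 in limma, which is 0.0201% of those tested. All 4 were positive: Grm7, Alx1, Pax1 and Cntn1. At an unadjusted p under 0.05 there were 723 genes, or 3.63%, of which 413 were positive and 310 negative. The median difference over all genes was -0.0065, and 47.8% of genes were positive. A 95% interval reached 0.247 to either side of the value for the median gene. It lay wholly within 1 log2 unit of 0 for 99.5% of genes and within 0.5 for 86.7%. On the scale of measured intensity, a limb-type difference of more than 2-fold thus lay outside the interval of nearly every gene. For dim genes a narrow interval may reflect low signal, and 43.3% of genes had a mean log2 level under 5. Beyond Xist and the Y-linked genes Kdm5d, Uty, Eif2s3y and Srsy, the 3 genes with a difference over 1 were Ibsp, Thbs4 and Panx3, all positive and none past the threshold.

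The 4 genes past the threshold encode a pair of developmental transcription factors and a pair of proteins best known from neurons. For each of them the wild-type forelimb was the highest of the 4 groups. In Alx1, Grm7 and Cntn1 the knockout-to-wild-type gap was wide in forelimbs and narrow in hindlimbs, whereas in Pax1 the knockout was below wild type in forelimbs and above it in hindlimbs. For Grm7 and Cntn1 the wild-type hindlimbs, at means of 3.80 and 4.06, already lay near the knockout forelimbs, at 3.69 and 3.86. Whether a fall in knockout hindlimbs could have been measured at these levels of Grm7 and Cntn1 was not tested.

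Alx1, an aristaless-related homeobox factor of facial and limb mesenchyme, read 6.52, 6.04, 6.36, 6.18 and 6.14 in wild-type forelimbs and 5.05, 5.05, 5.12, 4.97 and 4.68 in knockout forelimbs. In hindlimbs it read 4.94, 4.81, 4.74, 5.02 and 4.65 in wild type and 4.34, 4.46, 4.41, 4.41 and 4.31 in knockouts. Knockout arrays lay below every wild-type array in both limb types, by a larger step in forelimbs, where the knockout lay close to the wild-type hindlimb. Group means were 6.25 ± 0.190 and 4.97 ± 0.175 in wild-type and knockout forelimbs, and 4.83 ± 0.147 and 4.39 ± 0.064 in wild-type and knockout hindlimbs (SD, n = 5 each). The difference of effects was 0.83 (SE 0.131, 95% interval 0.56 to 1.10, limma adjusted p = 0.0197), a ratio of 1.78 between the responses of the limb types. Leaving out 1 array took the adjusted p above the threshold in 5 of 20 fits, at 0.0565 to 0.0639, each without 1 of wild-type hindlimb replicates 7, 8 and 10, knockout hindlimb replicate 7 and wild-type forelimb replicate 3.

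Pax1, a paired-box factor of the sclerotome and the shoulder girdle, read 5.47, 5.65, 5.76, 5.77 and 5.87 in wild-type forelimbs and 5.19, 5.10, 5.27, 5.14 and 5.38 in knockout forelimbs. In hindlimbs it read 5.51, 5.33, 5.31, 5.45 and 5.23 in wild type and 5.60, 5.64, 5.49, 5.49 and 5.49 in knockouts. The forelimb genotypes were fully separated, with the knockouts low, while the hindlimb genotypes overlapped, with 1 wild-type array, replicate 6, above the 3 lowest knockouts. Means were 5.70 ± 0.152 and 5.21 ± 0.112 in wild-type and knockout forelimbs and 5.37 ± 0.111 and 5.54 ± 0.075 in wild-type and knockout hindlimbs. Its difference of effects was 0.66 (SE 0.106, 95% interval 0.44 to 0.88, limma adjusted p = 0.0197), a ratio of 1.59. In 8 of 20 fits that left out 1 array the adjusted p was 0.0528 to 0.0657. These were the fits without wild-type forelimb replicate 3, 4 or 5, knockout forelimb replicate 2, wild-type hindlimb replicate 7, 8 or 10, or knockout hindlimb replicate 7. The Pax1 call was also lost with a block for side and replicate number as a covariate.

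Grm7, a metabotropic glutamate receptor of presynaptic terminals, had the smallest p. It read 4.51, 4.40, 4.50, 4.89 and 4.67 in wild-type forelimbs, 3.68, 3.70, 3.65, 3.77 and 3.63 in knockout forelimbs, 3.83, 3.80, 3.75, 3.74 and 3.89 in wild-type hindlimbs and 3.57, 3.71, 3.85, 3.52 and 3.89 in knockout hindlimbs. Only the wild-type forelimb stood apart, above all 15 other arrays, and the hindlimb genotypes overlapped. The wild-type forelimb mean was 4.59 ± 0.191, and the other group means lay between 3.69 and 3.80, a low level on these arrays, on which 43.3% of genes had a mean log2 level under 5. The difference of effects was 0.81 (SE 0.117, 95% interval 0.57 to 1.06, limma adjusted p = 0.0138), a ratio of 1.76. At this low level the size depends on the scale: with log2(value + 16) the Grm7 difference was 0.44. Grm7 alone kept its call in all 20 fits that left out 1 array, with adjusted p up to 0.0449.

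Cntn1, a membrane-anchored adhesion protein of axons, read 4.51, 4.83, 4.96, 4.70 and 4.77 in wild-type forelimbs, 3.81, 3.72, 4.07, 4.02 and 3.67 in knockout forelimbs, 3.82, 4.08, 4.17, 4.11 and 4.13 in wild-type hindlimbs and 4.12, 3.94, 3.77, 3.89 and 4.22 in knockout hindlimbs. Here too every wild-type forelimb array exceeded all 15 others and the hindlimb genotypes overlapped. The wild-type forelimb mean was 4.76 ± 0.166, against 3.86 ± 0.181, 4.06 ± 0.138 and 3.99 ± 0.183 in knockout forelimbs, wild-type hindlimbs and knockout hindlimbs. Its difference of effects was 0.82 (SE 0.142, 95% interval 0.53 to 1.12, limma adjusted p = 0.0435), a ratio of 1.77, and it was 0.46 with log2(value + 16). This call was the least stable: it held in 5 of 20 fits without 1 array, those without wild-type forelimb replicate 1, knockout forelimb replicate 3 or 4, or knockout hindlimb replicate 8 or 9, and in the other 15 the adjusted p was 0.0565 to 0.131. For Cntn1 the adjusted p was also 0.0635 with side as a covariate and 0.0726 with arrays centred on their medians. Its call was lost by more with a block for side and replicate number, or for title number, as a covariate.

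**Figure D1:**
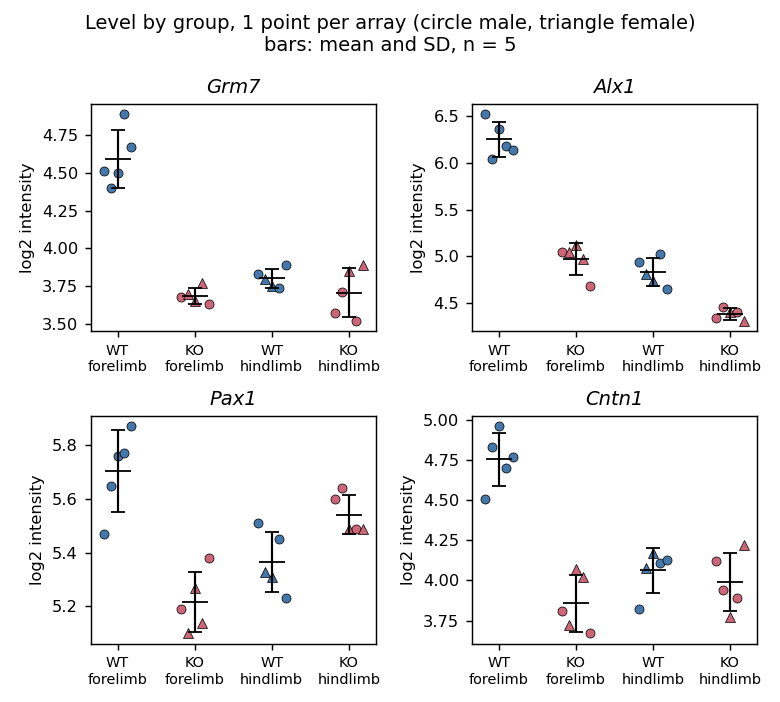
Log2 intensity of Grm7, Alx1, Pax1 and Cntn1 on the vertical axes, with 1 point per array in each of the 4 groups (circles male, triangles female) and bars for the mean and SD of 5 arrays. Wild-type forelimbs are the highest group in each panel, at means of 4.59, 6.25, 5.70 and 4.76, and for Grm7 and Cntn1 the other 3 groups share 1 range.

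After quantile normalization none of the 4 passed, with differences of 0.82 for Grm7, 0.82 for Alx1, 0.65 for Pax1 and 0.83 for Cntn1 at adjusted p of 0.0541, 0.0889, 0.0541 and 0.132. Sex and muscle levels moved with the groups. With sex as a covariate the differences past the threshold were those of Alx1, Cntn1, Grm7 and Grem1, and Pax1 was 0.61 with an adjusted p of 0.0666. Among the 13 male arrays alone the values were 0.72 for Grm7, 0.92 for Alx1, 0.60 for Pax1 and 0.98 for Cntn1, none past the threshold in that smaller fit, in which 963 genes had an unadjusted p under 0.05. The mean log2 level of 44 skeletal muscle genes was 7.18 in wild-type forelimbs (range 6.97 to 7.36), 6.82 in knockout forelimbs (6.62 to 6.97), 6.59 in wild-type hindlimbs (6.35 to 6.74) and 6.52 in knockout hindlimbs (6.40 to 6.70). With that level as a covariate the values were 0.73 for Grm7, 0.86 for Alx1, 0.61 for Pax1 and 0.76 for Cntn1, with adjusted p of 0.134, 0.134, 0.197 and 0.277. Beside the neuronal genes Grm7 and Cntn1, the mean log2 level of 15 measured neuron markers was 4.99 in wild-type forelimbs, 4.90 in knockout forelimbs, 5.09 in wild-type hindlimbs and 4.99 in knockout hindlimbs, with the wild-type hindlimb as the highest group. These are whole limbs, so fewer cells of a type and less RNA per cell cannot be told apart.

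**Figure D2:**
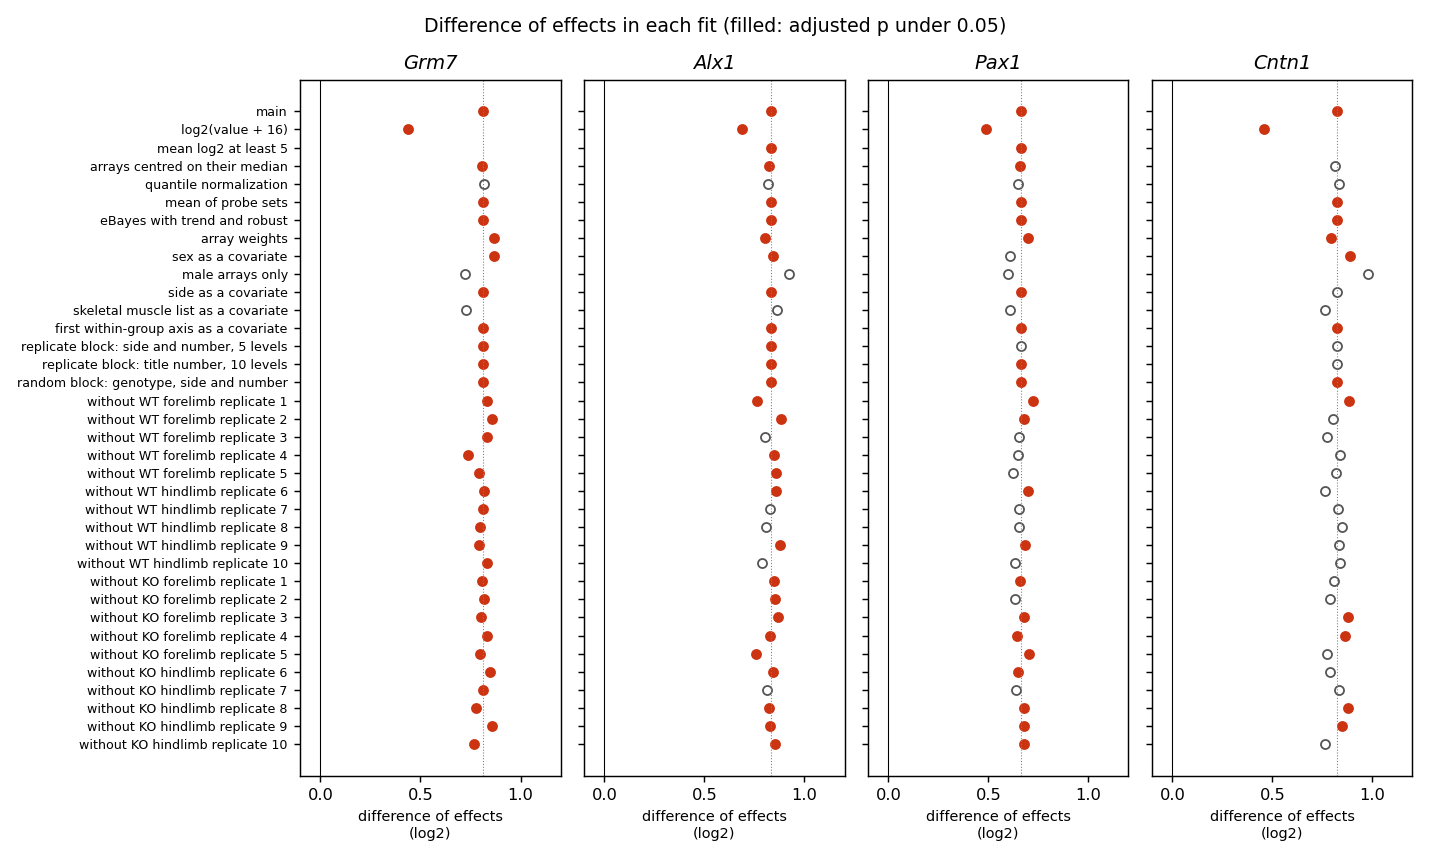
Difference of effects (log2, horizontal axis) of Grm7, Alx1, Pax1 and Cntn1 in the reported fit and each other fit, 1 row per fit, with filled points where the adjusted p was under 0.05. The points stay to the right of 0 in every fit shown, including those of the male arrays alone at 0.72, 0.92, 0.60 and 0.98, while the fill changes with the fit. Grm7 and Cntn1 have no point where a mean log2 level of at least 5 was required.

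The promoters of the genes past the threshold are shown as the stretches in which the letters of homeodomain sites can be looked for. They run from 250 bases before to 50 bases after the annotated start in RefSeq on GRCm38.p6, for the 3 of the 4 that matched an entry. All are on the plus strand, at chr6:110645262-110645561 for Grm7, chr2:147364744-147365043 for Pax1 and chr15:92050915-92051214 for Cntn1. Grm7 has 2 such windows and Cntn1 has 3, and the first is given. Capitals mark TAAT, searched on both strands, where the other strand reads ATTA.
Grm7: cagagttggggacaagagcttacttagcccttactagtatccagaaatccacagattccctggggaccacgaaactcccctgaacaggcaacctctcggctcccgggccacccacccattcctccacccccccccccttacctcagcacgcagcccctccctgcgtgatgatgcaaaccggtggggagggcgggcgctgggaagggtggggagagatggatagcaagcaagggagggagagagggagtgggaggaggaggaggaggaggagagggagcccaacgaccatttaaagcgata
Pax1: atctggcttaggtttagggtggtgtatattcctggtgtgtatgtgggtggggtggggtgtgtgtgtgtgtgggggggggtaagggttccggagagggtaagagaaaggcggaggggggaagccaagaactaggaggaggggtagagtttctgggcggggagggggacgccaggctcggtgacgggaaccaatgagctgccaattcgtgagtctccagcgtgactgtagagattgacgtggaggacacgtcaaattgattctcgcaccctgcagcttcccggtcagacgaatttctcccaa
Cntn1: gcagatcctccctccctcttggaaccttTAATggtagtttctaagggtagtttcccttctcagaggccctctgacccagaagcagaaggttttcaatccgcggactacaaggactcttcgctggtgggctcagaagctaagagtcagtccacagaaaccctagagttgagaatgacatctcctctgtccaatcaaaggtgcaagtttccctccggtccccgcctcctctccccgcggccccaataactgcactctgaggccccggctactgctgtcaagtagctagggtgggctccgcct
The Cntn1 window holds 1 match, which begins 222 bases before the start, and the Grm7 and Pax1 windows hold 0. Of 32851 promoter windows of this length, 58.0% hold TAAT on either strand, so the letters do not set these genes apart, and a match is a description rather than a binding site.

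The 20 autosomal genes with the smallest p, which include those 4, were mostly of the same kind. Of them 17 were positive and 3 negative, and the wild-type forelimb had the highest mean in 15, where 27.6% of all genes have it highest. In 11 of the 20 every wild-type forelimb array lay above all 15 others, as in 0.532% of all genes. Forelimb genotypes did not overlap in 16 of them (2.53% of all genes) and hindlimb genotypes in 7 (1.49% of all genes). These genes were picked on the same values, so these counts describe them and support nothing further. Within the wild-type forelimbs, replicate 1 was the lowest array for 11 of the 17 positive genes. The same array had the lowest mean of the osteoblast list, at 6.24 against 6.61 to 6.66 in the other 4, and of the tendon list, at 6.43 against 6.64 to 6.74. Ibsp is in the osteoblast list and Thbs4 in the tendon list, so these means are not separate from the 17 genes. Replicate 1 was not the lowest for the muscle, cartilage and neuron lists, at 6.99, 6.66 and 4.97, where the lowest arrays read 6.97, 5.82 and 4.96. Leaving out wild-type forelimb replicate 1 gave 10 genes past the threshold in limma: Alx1, Pax1, Grm7, Cntn1, Galnt13, Ibsp, Ntrk3, Slitrk1, Thbs4 and Ckm.

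Grem1, Thbs4 and Galnt13 came closest to the threshold without passing it. Grem1, a secreted BMP antagonist that sustains signalling between mesenchyme and apical ridge, read 6.80, 6.49, 6.66, 6.81 and 6.82 in wild-type and 5.26, 5.29, 5.57, 5.28 and 5.15 in knockout forelimbs. In hindlimbs it read 5.75, 5.81, 5.72, 5.79 and 5.82 in wild type and 4.70, 5.19, 5.51, 5.24 and 5.32 in knockouts. Knockouts lay below wild types in both limb types without overlap, with the wider step in forelimbs. The difference of effects was 0.82 (SE 0.154, 95% interval 0.50 to 1.14, limma adjusted p = 0.0808). It was 0.94 with an adjusted p of 0.00195 without knockout hindlimb replicate 6, 0.88 with 0.0386 without knockout forelimb replicate 3, and 0.92 with 0.0383 with sex as a covariate. Grem1 did not pass the threshold in the other fits without 1 array.

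Thbs4, a thrombospondin of the tendon matrix, read 7.05, 7.44, 7.53, 7.82 and 7.73 in wild-type and 6.38, 5.70, 6.17, 5.86 and 5.71 in knockout forelimbs. In hindlimbs it read 6.03, 6.10, 6.04, 5.45 and 5.96 in wild type and 5.19, 5.93, 5.40, 5.81 and 5.75 in knockouts. The forelimb genotypes were far apart, and the hindlimb genotypes overlapped at the level of the knockout forelimb. The difference of effects, 1.24 (SE 0.235, 95% interval 0.76 to 1.73, limma adjusted p = 0.0808), is a ratio of 2.37. Leaving out wild-type forelimb replicate 1 gave an adjusted p of 0.0169, leaving out knockout forelimb replicate 1 gave 0.0346, and leaving out knockout hindlimb replicate 6 gave 0.0345. Thbs4 did not pass the threshold in the other fits without 1 array.

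Ibsp, bone sialoprotein of mineralising matrix, had the largest autosomal difference and rested on uneven replicates. It read 3.94, 6.96, 6.49, 6.40 and 6.47 in wild-type forelimbs, while all 15 other arrays lay between 3.40 and 4.11. Replicate 1 of the wild-type forelimbs thus read like the other groups, and the remaining 4 stood far above. The difference of effects was 2.19 (SE 0.482, 95% interval 1.19 to 3.19, limma adjusted p = 0.340), and without that array it was 2.72 with an adjusted p of 6.71e-09. In the other fits without 1 array Ibsp did not pass the threshold. The wild-type hindlimbs lay near the knockout level for Ibsp, and whether a fall there could have been measured was not tested.

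Slitrk1, a neuronal transmembrane protein, read 5.53 to 5.99 in wild-type forelimbs, 4.48 to 4.70 in knockout forelimbs, 5.04 to 5.59 in wild-type hindlimbs and 4.69 to 4.98 in knockout hindlimbs, with a difference of 0.68 (SE 0.133, limma adjusted p = 0.112). Genotypes were separate in both limb types. Galnt13, which starts O-linked glycan chains, read 4.10 to 4.37 in wild-type forelimbs, 3.24 to 3.64 in knockout forelimbs, 3.59 to 3.74 in wild-type hindlimbs and 3.29 to 3.70 in knockout hindlimbs, with a difference of 0.66 (SE 0.123, limma adjusted p = 0.0808). Ntrk3, the receptor of neurotrophin-3, read 4.07 to 4.56 in wild-type forelimbs and 3.64 to 4.0 in all other arrays, with a difference of 0.52 (SE 0.111, limma adjusted p = 0.255). For Galnt13 and Ntrk3 the wild-type forelimb alone was above every other array. When wild-type forelimb replicate 1 was left out the adjusted p was 0.0434 for Slitrk1, 0.0434 for Galnt13 and 0.0169 for Ntrk3, and for Galnt13 it was also 0.0346 without knockout forelimb replicate 1 and 0.0330 without knockout hindlimb replicate 9. In the other fits without 1 array Slitrk1, Galnt13 and Ntrk3 did not pass the threshold.

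Smpd3, a sphingomyelinase needed in cartilage and bone mineralisation, read 4.76 to 5.26 in wild-type forelimbs and 4.05 to 4.48 in all other arrays, with a difference of 0.55 (SE 0.125, limma adjusted p = 0.422). Npy2r, a neuropeptide Y receptor, read 3.67 to 4.07 in wild-type forelimbs and 2.94 to 3.50 elsewhere, with a difference of 0.52. Both repeat the pattern of a wild-type forelimb above all other arrays. Cbln2, a synaptic organiser, read 6.95 to 7.24 in wild-type forelimbs, 5.40 to 5.81 in knockout forelimbs, 6.42 to 6.78 in wild-type hindlimbs and 5.30 to 5.98 in knockout hindlimbs. Its genotypes were separate in both limb types, with a wider gap in forelimbs and a difference of effects of 0.60 (SE 0.148, limma adjusted p = 0.796). The other positive genes among the 20 were Peg10 at 0.66, Slc25a41 at 0.45, Lrtm1 at 0.38 and Edn2 at 0.36, none past the threshold.

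The 3 negative genes among the 20 had different shapes. Aard, a small protein with alanine and arginine repeats, read 4.93 to 5.36 in wild-type and 5.01 to 5.41 in knockout forelimbs, 5.54 to 5.89 in wild-type hindlimbs and 5.01 to 5.42 in knockout hindlimbs, so that only the wild-type hindlimbs stood apart. Stra6, the membrane receptor for retinol uptake, read 6.41 to 6.92 in wild-type and 6.79 to 6.89 in knockout forelimbs, 6.75 to 7.07 in wild-type hindlimbs and 6.50 to 6.79 in knockout hindlimbs. Slc39a12, a zinc transporter, read 3.67 to 4.15 in knockout forelimbs and 3.19 to 3.56 in all other arrays. Aard thus mirrors the usual picture in hindlimbs, and Slc39a12 is set by the knockout forelimb. Their differences were -0.58 for Aard (SE 0.144), -0.45 for Stra6 (SE 0.115) and -0.46 for Slc39a12 (SE 0.119), with limma adjusted p of 0.788, 0.815 and 0.845.

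**Figure D3:**
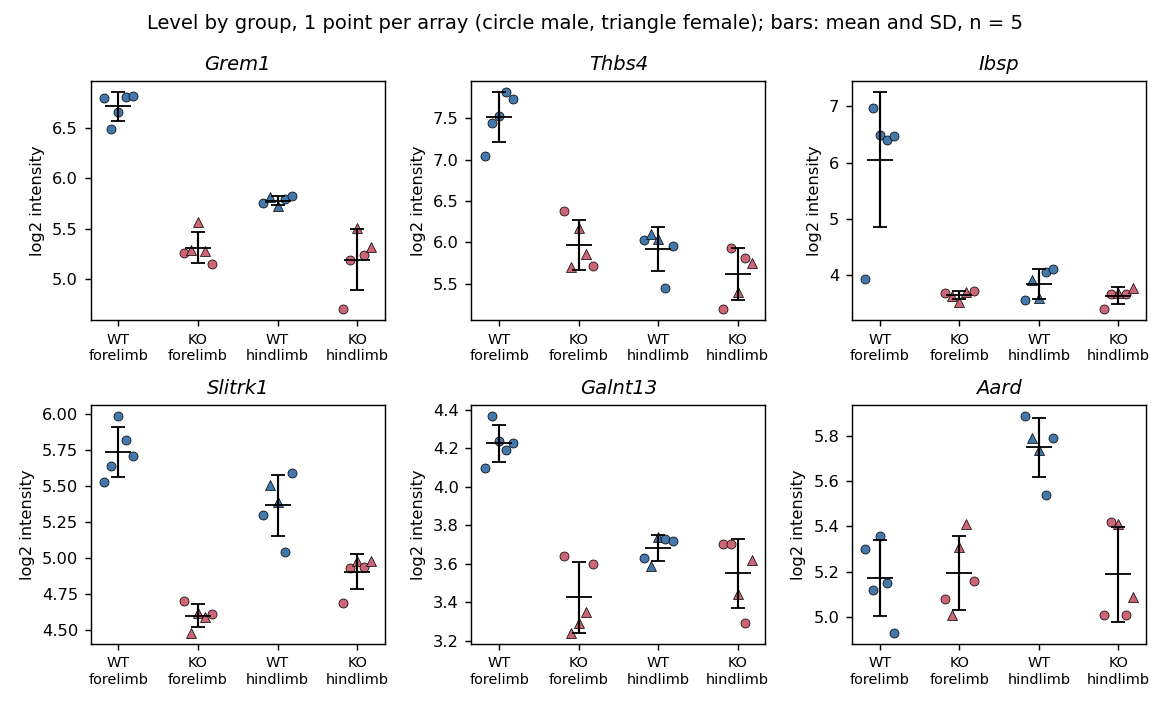
Log2 intensity of Grem1, Thbs4, Ibsp, Slitrk1, Galnt13 and Aard on the vertical axes, with 1 point per array (circles male, triangles female) and bars for the mean and SD of 5 arrays. In the Ibsp panel wild-type forelimb replicate 1, at 3.94, lies among the other groups, and in the Aard panel the wild-type hindlimbs, at 5.54 to 5.89, are the group that stands apart.

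For 14 genes chosen after their values were seen, from the overall genotype comparison of the same arrays, the interval around the difference shows how far the limb types could have differed. None passed the threshold. The keratan sulfate and collagen-binding proteoglycans Kera (0.22, 95% interval -0.21 to 0.65), Lum (0.21, -0.20 to 0.62) and Dcn (0.10, -0.44 to 0.65) leave room for a moderate difference in either direction. Narrower intervals around 0 were found for the semaphorin receptor Nrp2 (0.088, -0.17 to 0.35), the growth cone protein Gap43 (-0.024, -0.22 to 0.17) and the ligand Wnt11 (-0.11, -0.27 to 0.063). Emx2, a homeobox factor of the girdles and the brain, was 0.21 (-0.18 to 0.59), Calb1, a calcium buffer, 0.29 (-0.14 to 0.71), and Slc40a1, the iron exporter ferroportin, -0.037 (-0.44 to 0.37). The agouti pigment signal a was -0.34 (-0.73 to 0.053), the heparanase relative Hpse2 -0.20 (-0.58 to 0.18) and the transcriptional coactivator Eya1 -0.18 (-0.54 to 0.19). Intervals that left out 0 before adjustment were those of the lipocalin Apod, at 0.46 (0.16 to 0.76, unadjusted p = 0.00486), and the neurite protein Nrn1, at -0.59 (-0.98 to -0.20, unadjusted p = 0.0051). Apod means were 6.94 and 5.29 in wild-type and knockout forelimbs and 6.26 and 5.08 in wild-type and knockout hindlimbs, and those of Nrn1 were 5.63, 6.51, 5.66 and 5.95 in the same order.

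**Figure D4:**
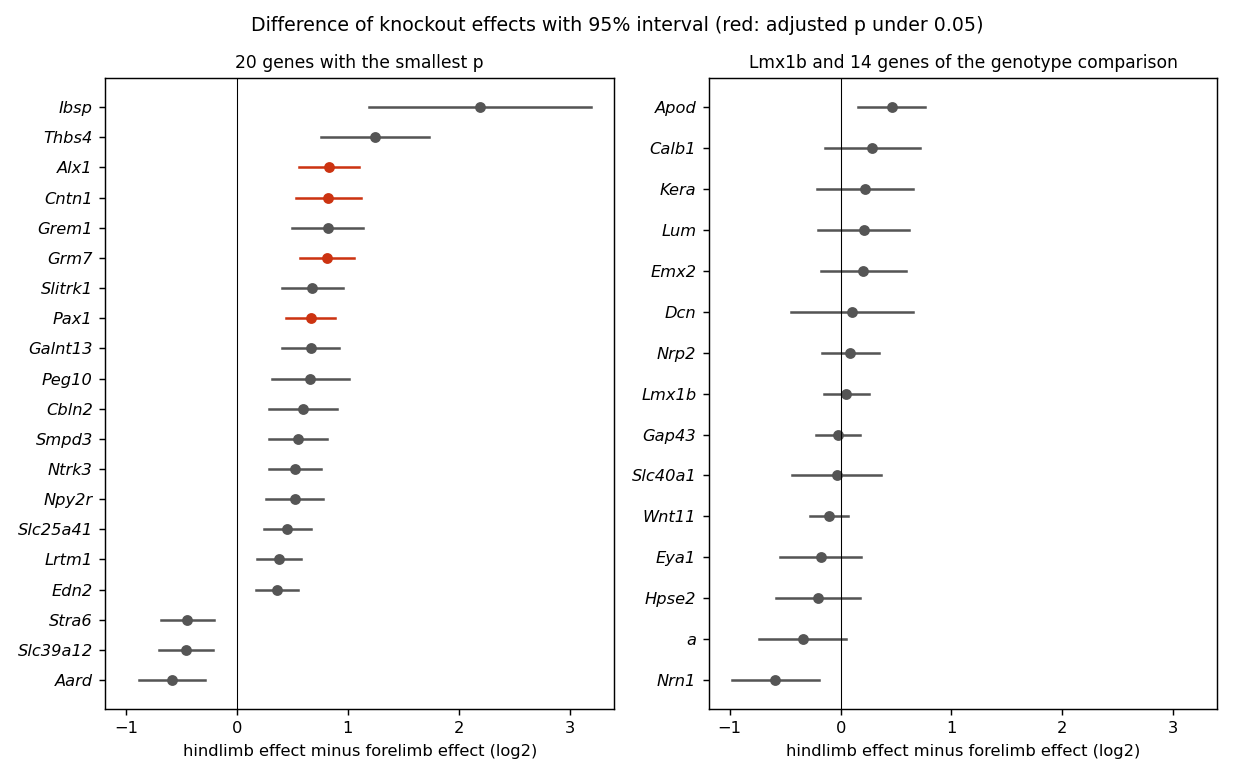
Difference of effects (log2, horizontal axis) with 95% intervals for the 20 genes with the smallest p on the left and for Lmx1b with 14 genes of the genotype comparison on the right, red where the adjusted p was under 0.05. Red intervals belong to Alx1, Cntn1, Grm7 and Pax1, and most intervals on the right cross 0, among them that of Lmx1b from -0.15 to 0.25.

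Gene lists were described by their counts and medians, to be read against all genes, of which 2.07% were positive and 1.55% negative at an unadjusted p under 0.05. Of 31 lists, 30 held no gene past the adjusted threshold. The exception was limb-type identity, with Alx1 and Pax1 among 21 measured genes, 11 of them positive, and a median of 0.033. The lists were written with earlier results of these data known, so this membership is a description and supports nothing further. The classical limb-type genes did not pass: Tbx5 was -0.30, Tbx4 -0.25 and Pitx1 -0.17. Alx4, a relative of Alx1, was -0.39, so members of this family had opposite signs.

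In each of the following skeletal and connective tissue lists the share of positive genes was above the 47.8% of all genes. Of 17 measured osteoblast and perichondrium genes 15 were positive, with a median of 0.29, and 9 were positive at an unadjusted p under 0.05, among them Alpl, the alkaline phosphatase of bone, at 0.44, and the osteoblast membrane protein Ifitm5 at 0.41. The member on the negative side at that p was Twist1, a transcription factor that holds back osteoblast differentiation, at -0.26 (unadjusted p = 0.00833). Among 13 genes of growth plate hypertrophy 9 were positive, 2 of them at an unadjusted p under 0.05, with a median of 0.097, and Panx3, a channel protein of maturing cartilage and bone, was 1.00 (95% interval 0.34 to 1.66). Cartilage genes were positive in 22 of 23, 3 of them at that p, with a median of 0.22 and Col11a1 at 0.51. The mean log2 level of the cartilage list ranged from 5.82 to 6.75 in wild-type forelimbs and 5.70 to 6.42 in knockout forelimbs. It ranged from 5.93 to 6.40 in wild-type hindlimbs and 5.67 to 6.56 in knockout hindlimbs, so the groups overlapped. Genes of 1 list were read on the same arrays and are not separate observations. Collagens were positive in 20 of 21, 5 of them at that p, with a median of 0.24 and Col12a1 at 0.62. Most of the collagens at that p stand in other lists of this paragraph too. Col1a1 and Col1a2 are in the osteoblast list, Col11a1 in the cartilage list and Col12a1 in the tendon list. The lists are thus not separate observations. Small leucine-rich proteoglycans were positive in 12 of 17 with a median of 0.086, but 0 of the 17 reached that p. Tendon and ligament genes were positive in 18 of 21, 5 of them at that p, with a median of 0.22, although Scx, the transcription factor of tendon progenitors, was 0.040 (95% interval -0.23 to 0.32). The mean log2 level of the osteoblast list was 6.55, 6.10, 6.04 and 5.95 in wild-type forelimbs, knockout forelimbs, wild-type hindlimbs and knockout hindlimbs, and that of the tendon list was 6.64, 6.07, 6.18 and 5.89 in the same order.

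Skeletal muscle genes were positive in 42 of 44, and the wild-type forelimb had the highest mean in 42 of 44, against 27.6% of all genes. The 44 genes were read on the same arrays and are not separate observations. Their median was 0.25 and 12 were positive at an unadjusted p under 0.05, with none past the adjusted threshold. The sarcomere genes Neb, at 0.84, Ttn, at 0.83, and Actn2, at 0.62, and the muscle creatine kinase Ckm, at 0.53, were among them. The early determination gene Myod1 was 0.18 (95% interval -0.19 to 0.55) and Myog, which starts terminal differentiation, was 0.19 (-0.13 to 0.51). Ckm passed the threshold only in the fit without wild-type forelimb replicate 1, at 0.66 with an adjusted p of 0.0434.

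Hox genes of groups 9 to 13 were negative in 14 of 17, against 52.2% of all genes, with a median of -0.18 and 5 negative at an unadjusted p under 0.05. The digit genes Hoxd12 at -0.56, Hoxd13 at -0.55 and Hoxa13 at -0.50 were among them. Mean log2 levels of Hoxd13 were 8.99 in wild-type forelimbs and 9.62, 9.55 and 9.62 in knockout forelimbs, wild-type hindlimbs and knockout hindlimbs, so that the wild-type forelimb was the low group. Among 23 proximodistal genes 13 were negative, a share of 56.5% near that of all genes, with a median of -0.028. The 4 that reached an unadjusted p under 0.05 were all negative and include Aldh1a2, the retinoic acid synthesising enzyme, at -0.81 (95% interval -1.55 to -0.068), and the LIM-homeodomain relatives Lhx9 at -0.51 and Lhx2 at -0.36. Retinoic acid genes were negative in 13 of 18 with a median of -0.060, and cell cycle genes in 22 of 29 with a median of -0.069. The dorsoventral list was split, 8 positive and 8 negative with a median of 0.0028. At an unadjusted p under 0.05 it held 5 of 16 genes, or 31.3%, against 3.63% of all genes, and they lay on both sides: Grem1 at 0.82 and the ventral factor En1 at 0.25 were positive, and Lhx9 at -0.51, Msx1 at -0.50 and Lhx2 at -0.36 negative. Several of these stand in other lists too, and none passed the adjusted threshold. The upstream signal Wnt7a was -0.11 (95% interval -0.47 to 0.26).

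Signalling pathway medians lay close to that of all genes. In the BMP, GDF and TGF-beta pathway 25 of 41 were negative, or 61.0%, with a median of -0.044 and 3 positive and 1 negative at an unadjusted p under 0.05, from the transcription factor Msx1 at -0.50 to Grem1. Of 31 hedgehog and FGF genes 17 were positive with a median of 0.022, and the mesenchymal ligand Fgf10 was -0.55 (95% interval -0.86 to -0.23). Its means were 5.47, 5.58, 5.95 and 5.52 in wild-type forelimbs, knockout forelimbs, wild-type hindlimbs and knockout hindlimbs. Of 43 Wnt genes 21 were positive with a median of -0.0028, and the inhibitor Dkk1 was -0.41.

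Lists of other cell types were mixed. Axon guidance and neurotrophic genes were positive in 25 of 41 with a median of 0.058, and neuron markers in 6 of 15 with a median of -0.024. Melanoblast genes were negative in 10 of 12 with a median of -0.18, from the pigment enzyme Dct at -0.74 to a highest value of 0.38. At an unadjusted p under 0.05, 2 melanoblast genes were negative and 1 was positive. Erythroid genes were positive in 10 of 11 with a median of 0.21, with the haem enzyme Alas2 at 0.73. Macrophage and leukocyte genes were positive in 18 of 22 with a median of 0.15, and endothelial genes in 18 of 23 with a median of 0.087. Erythroid mean log2 levels were 6.35, 6.06, 6.27 and 6.26 in wild-type forelimbs, knockout forelimbs, wild-type hindlimbs and knockout hindlimbs, and macrophage levels 5.37, 5.14, 5.10 and 4.99. The part of cell content or of limb maturity in any of these list values was not tested.

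**Figure D5:**
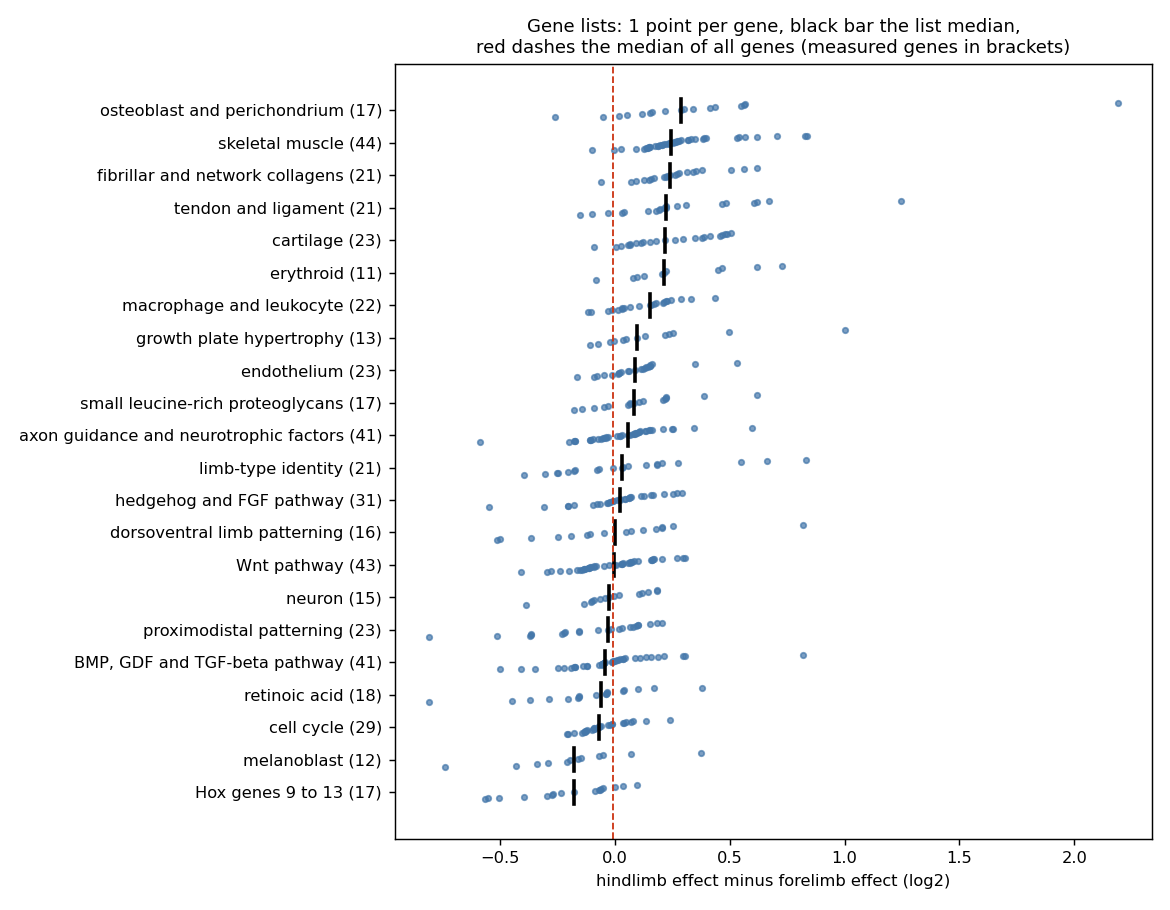
Difference of effects (log2, horizontal axis) for each measured gene of the described lists, 1 point per gene, with a black bar at the list median and a dashed line at the median of all genes, -0.0065. Osteoblast, muscle, collagen, tendon and cartilage medians lie to the right, at 0.22 to 0.29, and those of the Hox and melanoblast lists lie to the left, at -0.18.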

How the data were processed

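RNA of 20 single limbs was hybridised to Affymetrix ST arrays. The deposited values are intensities, which the authors summarised by RMA (per the submitters' processing notes) on a linear scale, as the values show. Software version and annotation: not given in the sources used here. No pseudocount was added before the log2. Of 35512 probe sets, 21789 carried 1 gene symbol, named by platform annotation and RefSeq, and the one with the highest mean stood for each of 19936 genes. The contrast came from limma 3.58.1 under R 4.3.3 (lmFit with 4 group means, eBayes, Benjamini-Hochberg over all genes). The fit was tested on simulated data. Tables and plots were made in Python 3.11.15 with pandas 2.3.3, numpy 2.4.6 and matplotlib 3.10.9.

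Named genes were Lmx1b, up to 12 of the largest positive and of the largest negative genes past the threshold, filled up to 20 by the smallest p without sex-linked or provisional names, and up to 4 members of each described list by p. Scx, Myod1, Myog, Hoxd13, Wnt7a, En1, Tbx4, Tbx5 and Pitx1 were added by their known roles, after their values were seen. Members and lists were chosen with earlier results of these data known. Alternatives were other scalings, filters, weights, covariates, blocks and thresholds, and leaving out each array.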

Additional observations from a re-analysis of the deposited data

Results flagged for a closer look

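The differences between limb types past the threshold were Alx1 at 0.83, Cntn1 at 0.82, Grm7 at 0.81 and Pax1 at 0.66, by limma's test of the difference itself.

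Single arrays far from the other 4 of their group were found in 5 of 84 groups of 5 arrays, over Lmx1b and the 20 genes with the smallest p, and chance alone marks about 5% of groups. Ibsp in wild-type forelimb replicate 1 read 3.94, where the others read 6.40 to 6.96. Cntn1 in wild-type hindlimb replicate 6 read 3.82, against 4.08 to 4.17. Thbs4 in wild-type hindlimb replicate 9 read 5.45, against 5.96 to 6.10. Slitrk1 in knockout hindlimb replicate 6 read 4.69, against 4.93 to 4.98. Stra6 in knockout forelimb replicate 5 read 6.79, against 6.87 to 6.89.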

How the results depend on the processing

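The number of genes past the threshold, 4 as reported, was 9 with array weights, 7 at an adjusted p under 0.1, 2 over the 11297 genes with a mean log2 level of at least 5, and 0 in limma after quantile normalization (807 genes at an unadjusted p under 0.05), with muscle level as a covariate (679), with male arrays only (963), over all 35511 probe sets (1248) and at an adjusted p under 0.01 (723). Without 1 array it ranged from 1 to 10. With the replicate block of 5 levels it was 2, Alx1 and Grm7, with Pax1 and Cntn1 at an adjusted p of 0.132. With the block of 10 levels it was 3, with Cntn1 at 0.234. Not every same-number pair deviated together: correlations of deviations ran from -0.245 to 0.37, and 11 of 30 pairs were over 0.1. The pairs over 0.1 were unevenly spread, with 5 of the 6 pairs among forelimb replicate 3 and hindlimb replicate 8 of both genotypes and 3 of the 6 among forelimb replicate 4 and hindlimb replicate 9. Whether arrays of 1 number shared a batch was not tested. The other fits gave counts within 1.5 times of 4.

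All 20 genes with the smallest p kept their direction in every fit run on them. With log2(value + 16), which shrinks dim genes, Grm7 was 0.44 and Cntn1 0.46. Other named genes that changed sign, none of them past the threshold, were as follows. With male arrays only, Lmx1b was -0.0103, Wnt7a 0.166, Col10a1 -0.0876, Slc40a1 0.0501 and Nrp2 -0.0325. With muscle level as a covariate, Mef2c was -0.0117, Kera -0.0572, Lum -0.0400 and Dcn -0.260. Without 1 array, Dcn ranged from -0.0298 to 0.242, Slc40a1 ranged from -0.131 to 0.0734 and Gap43 from -0.0612 to 0.0116. Low signal limits Grm7, Cntn1, Ibsp, Galnt13 and Ntrk3, and the number of arrays limits every value.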

Other observations

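Of 87 genes with a difference over 0.5 in size, 74 were positive and 13 negative. The 9 lists of joint, muscle connective tissue, Schwann cell, pericyte, epidermis, hypoxia, stress, early-stage and sex-linked genes, not described above, had medians from -0.069 to 0.11 and no gene past the threshold in limma.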
